A study of Mus musculus with 6 samples.

Results

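The mitochondrial genome of the mouse encodes subunits of complexes I, III, IV and V of oxidative phosphorylation, and the 6 genes described here, mt-Cytb, mt-Co1, mt-Co2, mt-Co3, mt-Atp6 and mt-Atp8, are those that belong to complexes III, IV and V. They were chosen by name, and all 6 were found among the 18792 genes of the deposited table. The study compared Nd6 mice, which carry a point mutation in the mitochondrially encoded complex I gene mt-Nd6, with WT mice, and mice with experimental autoimmune encephalomyelitis (EAE) with non-immunized controls. The study's methods describe cells from spinal cord, whereas its main text speaks of the entire CNS. These cells were sequenced in droplets, with 2 libraries of Nd6 EAE, 2 of WT EAE, 1 of Nd6 control and 1 of WT control mice, 6 in all. The mutation is carried in mitochondrial DNA, so it was not limited to myeloid cells. Per the study's methods, EAE was induced by immunization with a myelin oligodendrocyte glycoprotein peptide in female mice, whereas healthy controls included both sexes, and the EAE cells were taken on day 30. All mice were perfused with inhibitors of transcription before dissociation.

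The table holds 13614 cells, and each cell name ends in 1 of 6 suffixes. No label links a suffix to a library, so the cells were not assigned to genotype or treatment. These groups were therefore not compared, and no test was run. Cells with the same suffix form a set, and the 6 sets are called A to F here in order of their size, from 4633 cells in set A to 809 cells in set F. A total of 18 barcodes occurred in 2 sets and none in more. The deposited values are whole numbers whose total per cell lay between 687 and 1578, with a median of 962, and they were treated as a score, so the sequencing depth of the cells is unknown. The measure used throughout is the percentage of the cell total that a gene's values made up, averaged over cells, beside the mean deposited value itself. Differences between cell types were set beside the spread between sets, which are not replicates of a group.

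Complex III passes electrons from ubiquinol to cytochrome c, complex IV passes them on to oxygen, and complex V, the ATP synthase, uses the proton gradient that both help to build. mt-Cytb encodes cytochrome b of complex III, mt-Co1 the catalytic subunit of complex IV with its haems, mt-Co2 the subunit that receives electrons from cytochrome c, and mt-Co3 the third core subunit of that complex. mt-Atp6 encodes the subunit of the ATP synthase that forms the proton path and mt-Atp8 a small accessory subunit of the same membrane part. All are made from long polycistronic transcripts of the mitochondrial genome that are cut mainly at tRNAs. Microglia are known to change the balance between respiration and glycolysis when they are activated.

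In the GRCm38 annotation (GENCODE M21) the 6 genes lie on the + strand of chromosome M, at 5328-6872 (mt-Co1, 1545 bases), 7013-7696 (mt-Co2, 684 bases), 7766-7969 (mt-Atp8, 204 bases), 7927-8607 (mt-Atp6, 681 bases), 8607-9390 (mt-Co3, 784 bases) and 14145-15288 (mt-Cytb, 1144 bases). The end of mt-Atp8 and the start of mt-Atp6 occupy the same 43 bases, and mt-Atp6 and mt-Co3 share 1 base. No tRNA therefore lies between these neighbouring genes. The overlap of 43 bases is shown in capitals in the stretch chrM:7897-7999, because a read inside it cannot be given to either gene alone.
mt-Atp8 into mt-Atp6: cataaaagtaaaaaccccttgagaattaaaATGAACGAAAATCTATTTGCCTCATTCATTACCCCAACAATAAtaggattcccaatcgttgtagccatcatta

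Part of the mitochondrial genome has an annotated copy on chromosome 1, a row of unprocessed pseudogenes on the − strand. Gm28661 matched mt-Co2 in 681 of 681 aligned bases, Gm28437 matched mt-Co3 in 783 of 783, and Gm10925 matched mt-Atp6 in 678 of 678. Gm29216 matched the last 483 bases of mt-Co1 with 1 mismatch, A1066T, counted from the first base of mt-Co1. The copies keep the spacing of the originals, with 140 bases between the mt-Co1 and mt-Co2 copies and 233 bases between those of mt-Co2 and mt-Atp6, as on chromosome M. mt-Atp8 up to its overlap with mt-Atp6 lies within these 233 bases. It has no annotated copy of its own there, and the sequence of that stretch on chromosome 1 was not read. The last 43 bases of mt-Atp8, the overlap, matched Gm10925 without a mismatch and are shorter than the 60-base windows used below. The last 60 aligned bases of mt-Co2 (chrM:7634-7693, + strand) and of Gm28661 (chr1:24614885-24614944, − strand), shown to let the reader see that the copy cannot be told from the gene in the 3′ region, were the same.
mt-Co2: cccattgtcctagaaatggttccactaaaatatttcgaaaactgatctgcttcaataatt
Gm28661: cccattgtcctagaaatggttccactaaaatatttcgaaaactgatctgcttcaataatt

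The corresponding stretches of mt-Co3 (chrM:9330-9389) and Gm28437 (chr1:24613189-24613248), and of mt-Co1 (chrM:6813-6872) and Gm29216 (chr1:24615706-24615765), were equally without a difference.
mt-Co3: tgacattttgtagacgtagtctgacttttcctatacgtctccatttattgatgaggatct
Gm28437: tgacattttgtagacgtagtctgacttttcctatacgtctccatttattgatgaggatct
mt-Co1: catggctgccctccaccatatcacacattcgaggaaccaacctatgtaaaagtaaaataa
Gm29216: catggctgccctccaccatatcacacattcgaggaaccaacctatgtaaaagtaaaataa

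mt-Cytb had no such copy. Its closest annotated relative, the processed pseudogene Gm11410 on chromosome 4, differed at 81 of 1142 aligned bases (92.9% identity). In the last 60 aligned bases (chrM:15228-15287 and chr4:80005072-80005131, both + strand) 5 bases of Gm11410 differed from mt-Cytb and are given in capitals.
mt-Cytb: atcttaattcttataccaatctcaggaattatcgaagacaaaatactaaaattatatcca
Gm11410: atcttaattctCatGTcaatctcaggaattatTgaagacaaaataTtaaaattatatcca

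The members fell into separate ranges of level. Over all cells mt-Cytb had a mean deposited value of 9.75 and was above 0 in 98.7% of cells, mt-Co1 1.85 (74.5%), mt-Atp6 0.468 (34.6%), mt-Atp8 0.261 (21.4%), mt-Co3 0.247 (21.2%) and mt-Co2 0.0552 (5.33%). Per 1000 bases of gene, the mean deposited value was 8.52 for mt-Cytb, 1.28 for mt-Atp8, 1.20 for mt-Co1, 0.688 for mt-Atp6, 0.315 for mt-Co3 and 0.0806 for mt-Co2. The 3 lowest members per base were those with a full-length identical copy: at least 99.5% of the 60-base windows of mt-Co2, mt-Co3 and mt-Atp6 occurred in another annotated transcript, against 46.5% for mt-Co1 and none for mt-Cytb and mt-Atp8. Among the 7 complex I genes, mt-Nd3 (97.9% of windows shared, 0.582 per 1000 bases) and mt-Nd4l (98.7%, 0.212) were also low, and mt-Nd6 was low, at 0.354, with no window shared. mt-Nd4 shared 61.9% of its windows but none in its last 300 bases, and had 4.24 per 1000 bases. In contrast, mt-Co1 shared 100% of the windows in its last 300 bases. Cell Ranger, the authors' counting tool, counts a read only where it can be assigned to 1 gene. How much of the low level of mt-Co2, mt-Co3 and mt-Atp6 this accounts for, and how far it affects mt-Co1, was not tested. The levels of mt-Co1, mt-Co2, mt-Co3 and mt-Atp6 relative to other genes are uncertain.

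**Figure D1:**
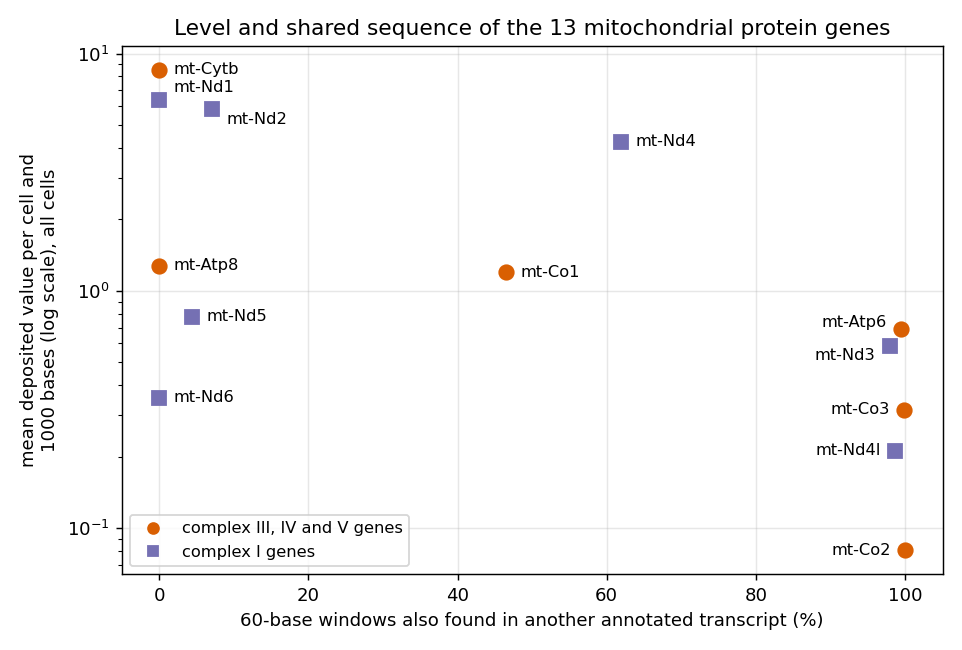
Mean deposited value per cell and 1000 bases of gene (log scale, all 13614 cells) against the percentage of 60-base windows that also occur in another annotated transcript, for the 13 mitochondrial protein genes. The 6 complex III, IV and V genes are circles and the 7 complex I genes squares, and the 5 genes at the right edge lie between 0.0806 (mt-Co2) and 0.688 (mt-Atp6).

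The copies themselves had few values in the table. Gm28661 had a mean deposited value of 0.00852, Gm28437 of 0.0142, Gm10925 of 0.0101 and Gm29216 of 0.0106, which is 15.4% of mt-Co2, 5.74% of mt-Co3, 2.15% of mt-Atp6 and 0.571% of mt-Co1. In each of these 4 copies, sets D and F had higher means than the other sets, from 0.0168 to 0.0397 in set D and from 0.0185 to 0.0371 in set F.

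All 6 members were higher in sets D, E and F than in sets A, B and C. mt-Cytb made up 0.812% of the cell total in set A, 1.00% in B, 0.937% in C, 1.44% in D, 1.33% in E and 1.36% in F. mt-Co1 made up 0.139%, 0.186%, 0.162%, 0.320%, 0.325% and 0.257% in sets A to F in that order. mt-Atp8 varied most between sets, with 0.0183%, 0.0209%, 0.0185%, 0.0521%, 0.0497% and 0.0448%, a highest set 2.85 times the lowest, against 1.77 times for mt-Cytb. The values of mt-Co2, mt-Co3 and mt-Atp6 in the highest set were 2.65, 1.90 and 1.96 times those in the lowest. Every cell type value below therefore depends on which sets its cells came from.

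Cells were gated on the number of lineage markers above 0. Myeloid cells were those with at least 6 markers of that lineage that met no other lineage gate. They numbered 11446 (84.1%) and were divided into 1116 cells with at least 6 homeostatic microglia markers and Apoe below 1% of the cell total, 344 cells with these markers and more Apoe, 1312 monocyte-like, 501 interferon-marked, 4742 very high Apoe (at least 6% of the cell total) and 3431 other myeloid cells. The other lineage gates were applied before the myeloid one and held 278 endothelial, 79 pericyte or smooth muscle, 176 astrocyte, 285 oligodendrocyte, 133 ependymal, 102 T or NK and 297 proliferating cells, while 25 cells met several gates and 793 none. Many of these cells also met the myeloid minimum, 281 of the 297 proliferating, 130 of the 176 astrocyte-gated, 138 of the 285 oligodendrocyte, 50 of the 102 T or NK, 32 of the 79 pericyte, 89 of the 278 endothelial and 20 of the 133 ependymal cells. Proliferating cells had a median of 9 myeloid markers, with C1qa, a microglial complement gene, above 0 in 96.6% and Tyrobp, a myeloid signalling adaptor, in 87.9% of them, so this gate marks cycling genes and mostly held myeloid-marked cells. The marker minimums and Apoe limits were set after marker numbers had been seen. The markers below belong to the gate lists themselves, so they describe the gates and are no separate check of the labels. P2ry12, a purinergic receptor of homeostatic microglia, was above 0 in 84.3% of the homeostatic-marked cells with low Apoe and Arg1 in 42.9% of the monocyte-like cells. Cldn5 was above 0 in 80.2% of endothelial, Rgs5 in 89.9% of pericyte, Slc1a2 in 83.0% of astrocyte and Ccdc153 in 84.96% of ependymal cells. Other markers of the same lists were rarer in their gate, such as Sall1 (23.7%, homeostatic with low Apoe), Chil3 (8.16%, monocyte-like), Slc1a3 (13.6%, astrocyte) and Sntn (4.51%, ependymal). Markers of other types were also widespread. Mbp, a myelin gene, was above 0 in 80.4% to 99.6% of cells in every gate, and C1qa in 33.1% of ependymal and 92.6% of astrocyte-gated cells, whose median number of myeloid markers was 7 of 12. How far RNA or cells of other types enter the values of a gate was not tested. The gates are ranges on a scale: 770 of the 1312 monocyte-like cells and 356 of the 501 interferon-marked cells sat at the minimum of 3 markers, 309 of the 1116 homeostatic-marked cells with low Apoe at the minimum of 6, 88 of the 176 astrocytes and 44 of the 102 T or NK cells at that of 4, 145 of the 285 oligodendrocytes at that of 7, 120 of the 297 proliferating cells at that of 3, and 296 of the very high Apoe cells lay within 1 percentage point of the limit.

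The 6 genes together took the largest share of the cell total in astrocyte-gated cells, 2.07%, followed by pericyte or smooth muscle cells at 1.86%, oligodendrocytes at 1.68% and homeostatic-marked cells with low Apoe at 1.66%. With 1 marker fewer in each gate astrocytes lost this place, with 1.70%, below pericyte or smooth muscle cells (1.73%) and homeostatic-marked cells with low Apoe (1.72%). Other myeloid cells had 1.53%, endothelial cells 1.34%, monocyte-like cells 1.23%, homeostatic-marked cells with raised Apoe 1.14%, very high Apoe cells 1.12%, interferon-marked cells 1.08%, ependymal cells 1.03%, T or NK cells 1.01% and proliferating cells 0.973%. Sets with at least 20 cells of a gate gave the spread. Astrocytes had 1.81% in set A, 2.25% in B and 2.35% in E, each above the endothelial cells of the same set, which had 1.23%, 1.29% and 1.27%. Oligodendrocytes ranged over the 6 sets from 1.26% to 2.11% with a median of 1.79%, and overlapped the astrocytes. T or NK cells varied little, with 1.00%, 1.02% and 1.04% in sets A, B and C, below the endothelial cells in each of these sets. Neighbours in the order, such as interferon-marked, very high Apoe and raised-Apoe cells, differed by less than their sets did.

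**Figure D2:**
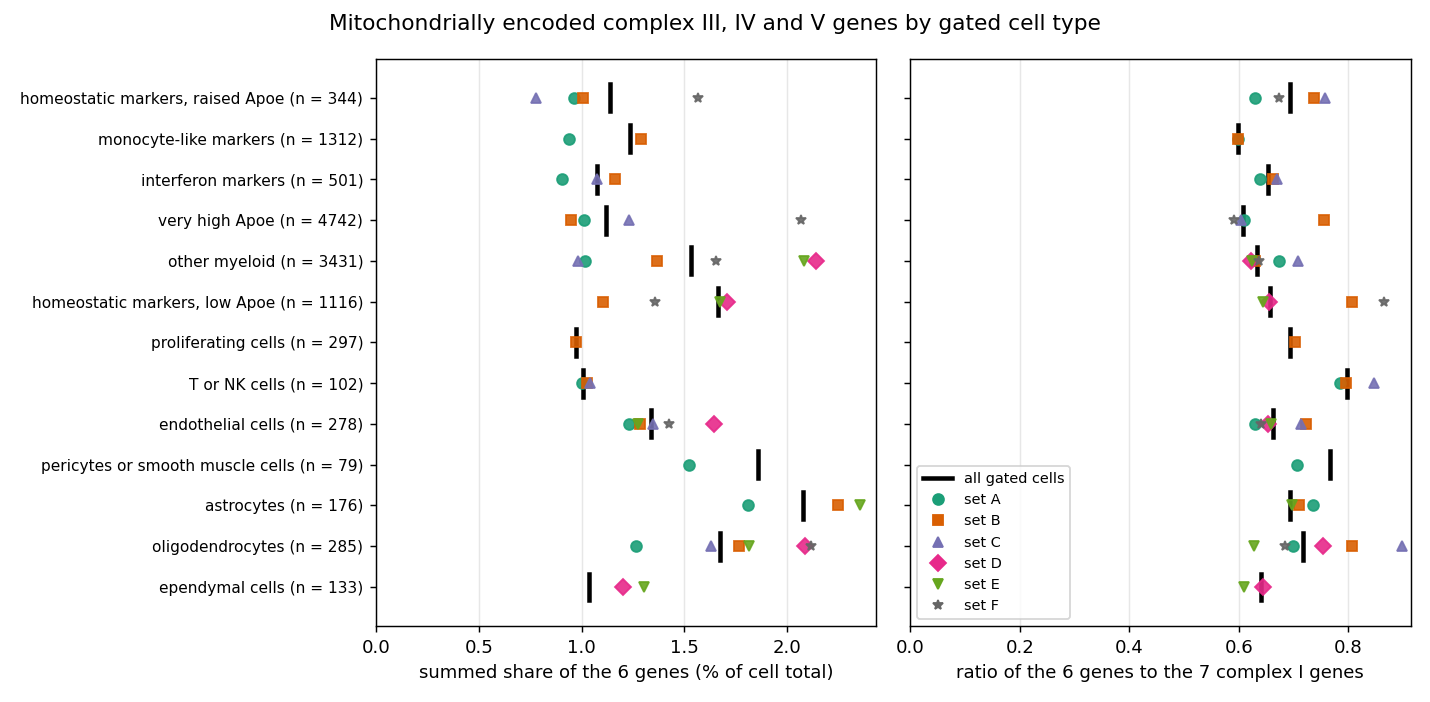
Summed share of the 6 genes (left, % of cell total) and ratio of the 6 genes to the 7 mitochondrially encoded complex I genes (right) in each gate, with the number of cells beside its name. Black bars are means over all gated cells and symbols are the means in each set with at least 20 such cells; with these marker minimums and all cells, astrocytes have the highest share and T or NK cells the highest ratio, places that both lose with 1 marker fewer (1.70% and 0.705, against 1.73% and 0.711 in pericytes or smooth muscle cells).

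mt-Cytb carried most of the sum, and the order of its share was nearly the same. Unlike in the sum, very high Apoe cells (0.893%) stood above homeostatic-marked cells with raised Apoe (0.881%). T or NK cells (0.784%) likewise stood above ependymal cells (0.751%). The mean deposited value of mt-Cytb was 14.4 in astrocytes, 13.6 in pericyte or smooth muscle cells, 12.9 in homeostatic-marked cells with low Apoe, 12.7 in oligodendrocytes, 10.7 in endothelial cells, 8.51 in T or NK cells, 7.90 in ependymal cells and 7.69 in proliferating cells. The interquartile range was 9 to 19 in astrocytes and 4 to 11 in proliferating cells, so single cells of these gates overlapped.
mt-Co1 had its highest mean deposited values in homeostatic-marked cells with low Apoe (2.85) and astrocytes (2.76) and its lowest in T or NK cells (1.29). On the share of the cell total the top 2 changed places, with 0.308% in astrocytes and 0.275% in homeostatic-marked cells with low Apoe. Within sets B, D, E and F mt-Co1 made up 0.143%, 0.274%, 0.292% and 0.194% in these homeostatic-marked cells. That was below all cells of the same sets, at 0.186%, 0.320%, 0.325% and 0.257%. mt-Atp6 had its highest mean deposited values in oligodendrocytes (0.726) and pericyte or smooth muscle cells (0.709) and its lowest in very high Apoe cells (0.346), while on the share pericyte or smooth muscle cells (0.0783%) stood above oligodendrocytes (0.0707%). mt-Atp8, above 0 in 41.4% of homeostatic-marked cells with low Apoe (mean 0.518), was above 0 in 15.4% of interferon-marked cells (0.168) and 15.8% of very high Apoe cells (0.181). These gates came mostly from different sets. Within set B mt-Atp8 made up 0.0224% of the cell total in homeostatic-marked cells with low Apoe. It made up 0.0195% in interferon-marked, 0.0187% in monocyte-like and 0.0173% in very high Apoe cells of that set. The mean deposited value of mt-Co3 ranged from 0.192 in interferon-marked cells to 0.418 in oligodendrocytes. That of mt-Co2 ranged from 0.0346 in very high Apoe cells to 0.109 in oligodendrocytes, and since it was above 0 in at most 10.5% of the cells of any gate, its order rests on few values.

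Within the myeloid cells, every state had a lower pooled share of the 6 genes than homeostatic-marked cells with low Apoe (1.66%). The fold was 0.69 for homeostatic-marked cells with raised Apoe, 0.74 for monocyte-like, 0.65 for interferon-marked, 0.67 for very high Apoe and 0.92 for other myeloid cells. By member, mt-Atp8 had pooled folds of 0.33 in interferon-marked, 0.38 in very high Apoe and 0.39 in monocyte-like cells. These were the lowest in each apart from mt-Co2, which also stood at 0.38 in very high Apoe cells. mt-Cytb stood at 0.69, 0.72 and 0.79 in the same states. mt-Co1 had folds of 0.55, 0.54 and 0.61 in the same states.

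These pooled folds were read against all genes above 0 in at least 10% of the cells of either state, a limit that 5 of the 6 members passed and mt-Co2 did not. In homeostatic-marked cells with raised Apoe, 1 of the 5 members (mt-Atp8) was at least 2-fold lower, against 6.07% of 1564 genes. The same member was the only one past this limit in monocyte-like cells, against 17% of 1647 genes, and in very high Apoe cells, against 22.8% of 1551. In interferon-marked cells mt-Co3 and mt-Atp8 passed it, against 13.2% of 1652, and in other myeloid cells none did, against 10.1% of 1422. At 1.5-fold lower, 3 of 5 members passed in homeostatic-marked cells with raised Apoe (20.6% of all genes), 3 in monocyte-like cells (32%), 4 in interferon-marked cells (27.8%), 4 in very high Apoe cells (40.2%) and 1 in other myeloid cells (29.1%). No member was 1.5-fold higher in any state, beside 13.6%, 22.3%, 21.1%, 15.7% and 10.7% of all genes in the same order of states. The median fold of the 5 members was 0.62, 0.66, 0.55, 0.54 and 0.89 in these 5 states in the order given, beside medians over all tested genes of 0.93, 0.90, 0.95, 0.77 and 0.85.

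The pooled folds compare cells of different sets, because the states were unevenly spread over them. Of the 1116 homeostatic-marked cells with low Apoe, 574 came from set D and 475 from set E, and none from sets A and C. Of the 4742 very high Apoe cells, 3350 came from set A and 1094 from set C, and 1071 of the 1312 monocyte-like cells came from set B. State and set can therefore not be told apart in the pooled values. Within a set, only other myeloid cells shared at least 50 cells with the homeostatic-marked cells with low Apoe, and there the fold was 1.25 in set D (2.14% against 1.71%) and 1.24 in set E (2.08% against 1.67%), both opposite in direction to the pooled 0.92. With at least 20 cells of both, a limit chosen after the data had been seen, sets B and F could be read as well, against 43 and 24 homeostatic-marked cells with low Apoe. In set B the fold was 0.91 for homeostatic-marked cells with raised Apoe, 1.17 for monocyte-like, 1.05 for interferon-marked, 0.86 for very high Apoe and 1.24 for other myeloid cells. In set F it was 1.16 for homeostatic-marked cells with raised Apoe, 1.52 for very high Apoe and 1.22 for other myeloid cells. In all, 8 of these 10 folds were above 1, and sets A and C, which held no homeostatic-marked cells with low Apoe, could not be read.

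Taking all homeostatic-marked cells of a set, whatever their Apoe, as the comparison allowed more states to be read within sets; this was chosen after the data had been seen and needed at least 40 cells of both. Monocyte-like cells had 1.29% in set B, against 1.03% in its homeostatic-marked cells (fold 1.25), and 0.938% against 0.963% in set A (0.97). Interferon-marked cells had folds of 0.94 in set A, 1.12 in set B and 1.38 in set C. Very high Apoe cells had 2.07% in set F, against 1.52% in homeostatic-marked cells (1.36), and folds of 1.58 in set C, 1.05 in set A and 0.92 in set B. Other myeloid cells had folds between 1.05 in set A and 1.32 in set B in the 6 sets. Of these 15 folds 12 were above 1, and the 3 below 1 were those of monocyte-like and interferon-marked cells in set A and of very high Apoe cells in set B. Single members varied more. In monocyte-like cells mt-Co1 had 0.93 (A) and 1.26 (B), and mt-Atp8 1.43 and 0.92. In interferon-marked cells mt-Co1 had 0.99 (A), 1.18 (B) and 1.31 (C), and mt-Atp8 0.90, 0.96 and 0.65. In very high Apoe cells mt-Co1 had 1.04 (A), 0.80 (B), 1.42 (C) and 1.37 (F), and mt-Atp8 1.40, 0.85, 1.38 and 0.94. The comparison cells differ from those of the pooled folds, since all 76 homeostatic-marked cells of set A, all 42 of set C, 128 of 171 in set B and 89 of 113 in set F had raised Apoe. The homeostatic-marked cells themselves had 0.963%, 1.03%, 0.778%, 1.71%, 1.67% and 1.52% in sets A to F in that order, and their median Apoe share was 8.97%, 1.69%, 5.96%, 0%, 0% and 1.98%.

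**Figure D3:**
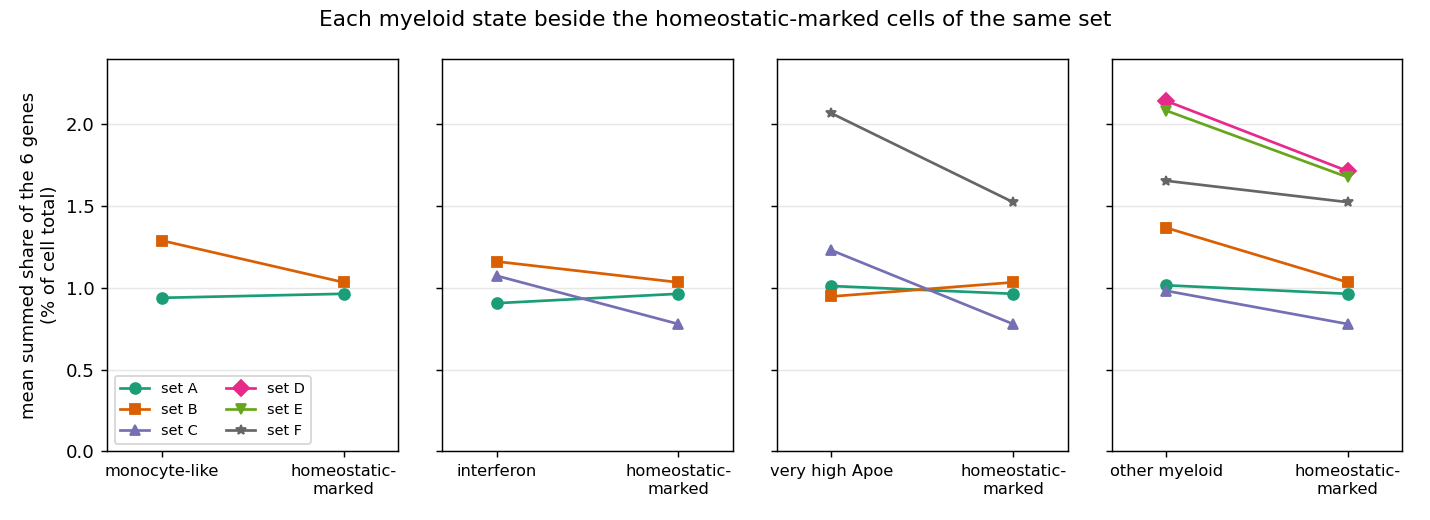
Mean summed share of the 6 genes (% of cell total) in each of 4 myeloid states (left in each panel) and in all homeostatic-marked cells of the same set (right), joined by set, for sets with at least 40 cells of both. Other myeloid cells lie above the homeostatic-marked cells in all 6 sets, by folds of 1.05 to 1.32.

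The share also followed the number of genes above 0 in a cell. It was 1.66% in cells with 300 to 399 genes, 1.33% with 500 to 599 and 0.923% with 900 to 999. The same direction held within each set between these ends, for example 2.33% and 1.11% in set D and 1.31% and 0.761% in set A. Median genes per cell were 595 in homeostatic-marked cells with low Apoe, 447 in other myeloid, 581 in very high Apoe, 632 in monocyte-like, 444 in astrocyte, 564 in oligodendrocyte, 722 in ependymal and 730.5 in T or NK cells, so gates with few genes per cell tended to stand high and gates with many genes low. Restricted to cells with 400 to 700 genes, the fold of other myeloid over all homeostatic-marked cells became 1.10 in sets D and E, 1.00 in set F and 1.23 in set B, and that of monocyte-like cells in set B was 1.25. Part of the authors' cell filter was a mitochondrial share below 15%, which removes cells by the measured quantity; measured on the deposited values, 238 cells were at or above 15%, with a highest share of 19.2%.

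**Figure D4:**
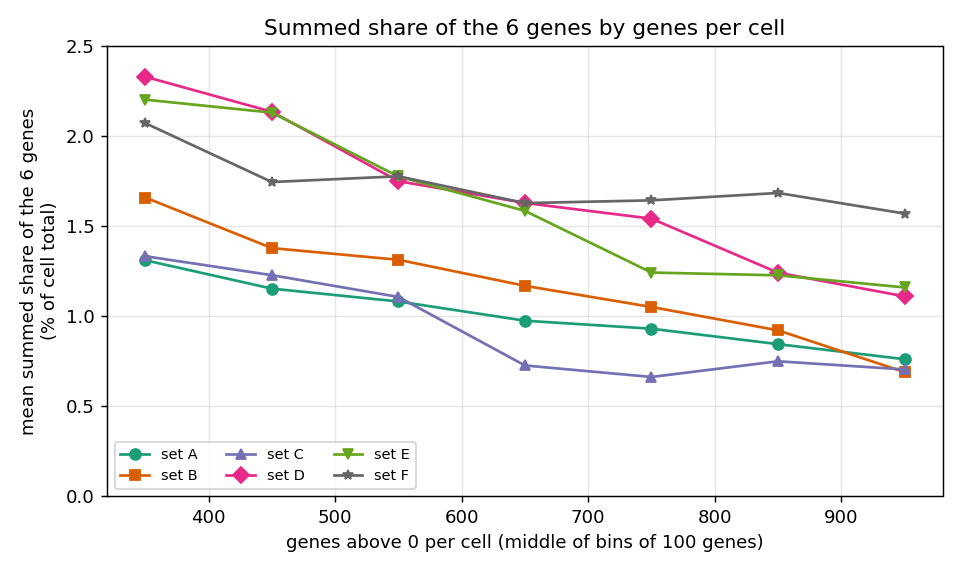
Mean summed share of the 6 genes (% of cell total) in bins of 100 genes above 0 per cell, for each of the 6 sets. The share is lower at the right end than at the left end in every set, and sets D, E and F lie above sets A, B and C in every bin.

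Beside the complex I genes of the same genome, the 6 genes moved little. The summed mean of the 6 genes was 0.637 times that of the 7 complex I genes over all cells, and between 0.625 and 0.645 in the 6 sets, although the share itself ranged over sets from 1.03% to 1.92%. By gate the ratio was highest in T or NK cells, at 0.797, with 0.784, 0.796 and 0.847 in sets A, B and C. This place was lost to pericyte or smooth muscle cells with the authors' stated filters (0.707 in T or NK cells, 0.764 in pericytes), with 400 to 700 genes per cell (0.712 and 0.789) and with 1 marker fewer (0.705 and 0.711). Over all gated cells it was 0.767 in pericyte or smooth muscle cells, 0.717 in oligodendrocytes, 0.693 in astrocytes, in proliferating cells and in homeostatic-marked cells with raised Apoe, 0.662 in endothelial cells, 0.656 in homeostatic-marked cells with low Apoe, 0.653 in interferon-marked, 0.641 in ependymal, 0.633 in other myeloid, 0.607 in very high Apoe and 0.599 in monocyte-like cells. In set A the T or NK cells lay above every other gate with at least 20 cells, whereas in set B homeostatic-marked cells with low Apoe (0.807) and oligodendrocytes (0.806) and in set C oligodendrocytes (0.898) lay above them. Monocyte-like cells lay lowest in sets A and B, at 0.599 and 0.598. Oligodendrocytes varied most, with a range over sets of 0.628 to 0.898.
The T or NK value came from a low complex I sum, 1.28% of the cell total, against 2.09% over all cells, while the sum of the 6 genes was 1.01% against 1.32%.
mt-Nd6 and mt-Nd3 differed most from the members. mt-Nd6 is the gene mutated in Nd6 mice and the one protein gene transcribed from the opposite strand. Pooled over sets, it made up 0.0578% of the cell total in homeostatic-marked cells with low Apoe and 0.00603% in monocyte-like cells. Its highest set was 7.09 times its lowest. Over all cells it made up 0.0611% in set D and 0.0570% in set E, where most of these homeostatic-marked cells came from. In set B, the source of most monocyte-like cells, it made up 0.00938%. Within set B the 2 gates had 0.0179% and 0.00629%. The rRNAs mt-Rnr1 and mt-Rnr2 together made up 4.41% in homeostatic-marked cells with low Apoe and 2.13% in proliferating cells.

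The make-up of the sum was close to constant. mt-Cytb supplied between 72.5% (ependymal cells) and 79.9% (very high Apoe cells) of the summed values, mt-Co1 between 11.9% (T or NK cells) and 16.8% (ependymal cells), mt-Atp6 between 3.19% and 4.68%, mt-Co3 between 1.75% and 2.88%, and mt-Co2 between 0.294% and 0.899%. mt-Atp8 supplied 3.52% in ependymal, 3.20% in endothelial and 2.98% in homeostatic-marked cells with low Apoe, against 1.53% in interferon-marked cells. As given above, mt-Atp8 was also the member that differed most between sets.

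The mitochondrial and the nuclear subunits of the same complexes did not share an order. The 42 nuclear complex III, IV and V genes of the table, which encode subunits imported into the mitochondrion, together made up 1.69% of the cell total in ependymal and 1.60% in proliferating cells, the gates where the 6 mitochondrial genes were among the lowest, and 0.710% in T or NK cells. The pooled ratio of the 6 mitochondrial to the 42 nuclear genes was therefore 0.579 in ependymal and 0.576 in proliferating cells. It was 1.57 in homeostatic-marked cells with low Apoe, 1.42 in astrocytes, 1.40 in T or NK cells, 1.29 in endothelial cells and 0.811 in interferon-marked cells. The first place of the homeostatic-marked cells with low Apoe held within none of sets B, D, E and F. In set B they had 0.808, beside 0.815 in interferon-marked, 0.960 in monocyte-like, 1.17 in endothelial, 1.26 in astrocyte-gated and 1.36 in T or NK cells. In set F they had 1.15, against 1.91 in very high Apoe cells. In set D they had 1.62, against 1.89 in other myeloid cells. In set E they had 1.63, against 1.86 in other myeloid and 1.70 in astrocyte-gated cells. The other gates with a value in sets D and E lay below them. In set D ependymal cells had a ratio of 0.671, against 1.62 in homeostatic-marked cells with low Apoe and 1.36 in oligodendrocytes, and in set E 0.755, against 1.63 and 1.21. In set B proliferating cells had 0.570, against 0.808 in homeostatic-marked cells with low Apoe. The difference between ependymal and homeostatic-marked cells was thus larger than that between these 2 sets.

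**Figure D5:**
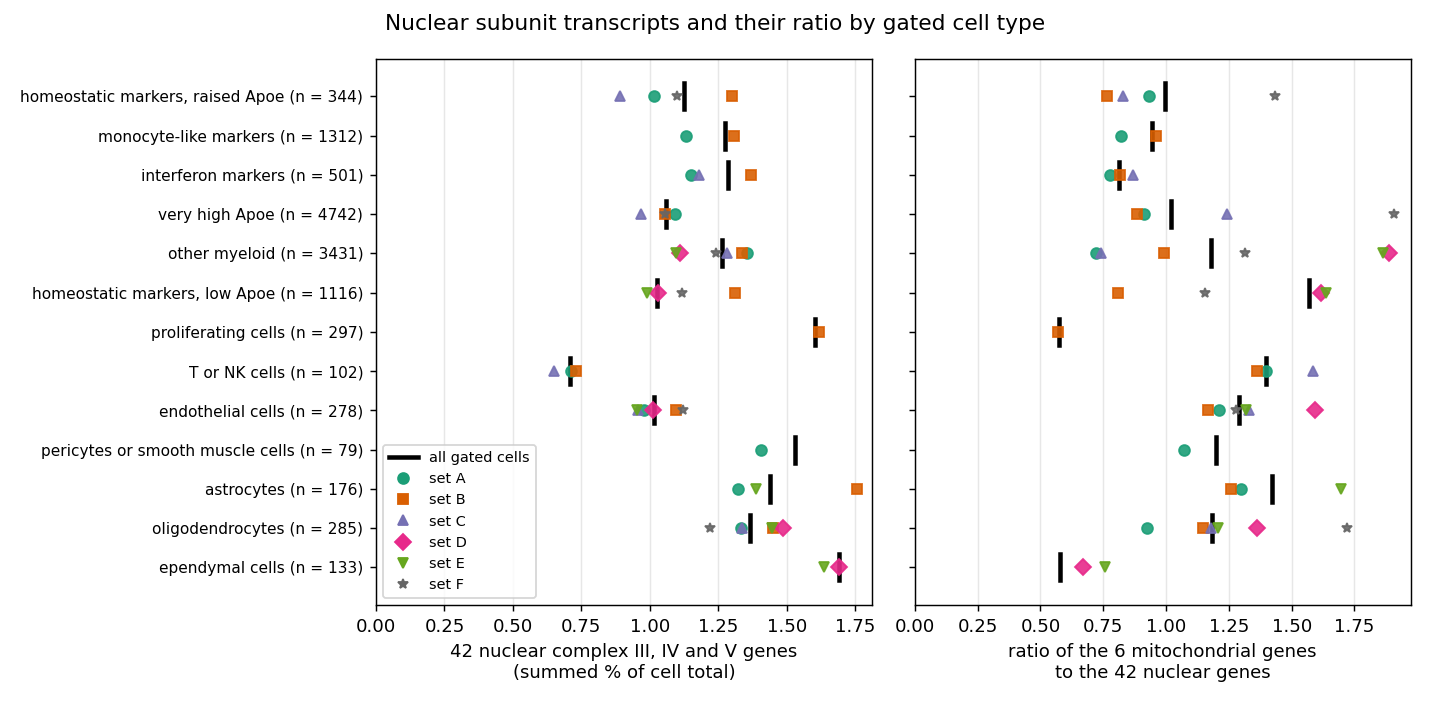
Summed share of 42 nuclear complex III, IV and V genes (left, % of cell total) and ratio of the 6 mitochondrial genes to them (right) in each gate; black bars are all gated cells and symbols are sets with at least 20 such cells. Ependymal and proliferating cells have the highest nuclear share and the lowest ratios, 0.579 and 0.576.

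The myeloid states with the lowest and the highest pooled share of the members were interferon-marked and homeostatic-marked with low Apoe. Between them, the pooled median folds of the nuclear lists lay on the other side of 1. Within set B, where both states had at least 20 cells, the nuclear genes and the members lay on the same side. There the 42 nuclear genes summed to 1.37% in interferon-marked and 1.31% in homeostatic-marked cells with low Apoe, and the members to 1.16% and 1.10%. The folds that follow are pooled. Of the complex III list 7 of 9 genes could be read, with a median fold of 1.16, of the complex IV list 12 of 15 with 1.25, and of the complex V list 16 of 18 with 1.32, beside 0.95 for all genes tested. At 1.5-fold, 1, 1 and 4 of these genes were higher and none lower, where 21.1% of all genes were higher and 27.8% lower. In complex III, Uqcrb, a subunit that binds ubiquinone, had a fold of 1.69 (0.0372% of the cell total in interferon-marked cells, 0.0220% in homeostatic-marked cells) and Uqcrfs1, the Rieske iron-sulfur protein, of 1.33, whereas Uqcr11 had 0.99 and Uqcr10 1.11. In complex IV, Cox5a stood at 2.07 (0.0302% and 0.0146%) and Cox7a2 at 1.37, with Cox6a1 at 0.88 and Ndufa4 at 0.93. In complex V, Atp5g1 and Atp5g3, which encode the same c-ring protein, stood at 1.69 and 1.63, with the central-stalk gene Atp5c1 at 0.82 and the catalytic-head gene Atp5a1 at 0.97. Of complex II, which has no mitochondrial gene, Sdhb stood at 1.18 and Sdha at 0.78. Of the assembly factors, Cox17, a copper chaperone, stood at 1.36, Uqcc2 at 1.23 and Coa3 at 0.71, and none of the 12 genes of mitochondrial transcription and transcript stability was above 0 in enough cells. In the other states, compared with homeostatic-marked cells with low Apoe, 0, 2 and 1 genes of complexes III, IV and V were 1.5-fold higher in monocyte-like cells (22.3% of all genes higher), 0, 1 and 0 in very high Apoe cells (15.7%), 0, 1 and 0 in other myeloid cells (10.7%) and none in homeostatic-marked cells with raised Apoe (13.6%), and none was 1.5-fold lower in any. These folds carry the same difference in sets as those of the members.

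Over the 13 gates, the genes whose mean share followed the sum of the members most closely were led by complex I genes of the same genome. Of 4481 genes above 0 in at least 10% of the cells of a gate, the highest Spearman correlations were those of mt-Nd4 (0.95), mt-Nd1 (0.94), mt-Nd2 (0.91), Lsamp (0.90), Htra1 (0.89), Ktn1 (0.88), mt-Nd5 (0.88), Kif5b (0.87), Ctnna3 (0.85) and, tied at 0.82, Tgoln1 and the rRNA mt-Rnr1. Lsamp, a neuronal and glial adhesion protein, Htra1, a secreted protease, Kif5b, a kinesin heavy chain, and Ctnna3, a catenin, were all highest in astrocyte-gated cells. Ktn1, which binds kinesin, was highest in oligodendrocytes, and Tgoln1, a protein of the trans-Golgi network, in homeostatic-marked cells with low Apoe. With 13 points that share sets and a common denominator, these values are a description of the gates. The members are parts of the sum, and mt-Cytb supplies most of it, so their values cannot be set beside those of the other genes. mt-Cytb followed the sum at 0.99, mt-Co1 at 0.90, mt-Atp6 at 0.85, mt-Atp8 at 0.81 and mt-Co3 at 0.73, and mt-Co2 did not follow it, at 0.06.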

How the data were processed

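Per the labels and the study's methods, the authors aligned reads to GRCm38 (Ensembl 93) with Cell Ranger 7.1.0, intronic reads included, merged libraries in Seurat 4.3.0.1 and filtered cells, also on a mitochondrial share below 15%. The deposited values are a score: whole numbers per gene and cell whose origin from UMI counts is not given in the sources used here. No test was run, since cells were not assigned to libraries and count models need counts. Depth is unknown, so no counting interval was computed, and doublets were not called.

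Shares of the cell total were averaged over gated cells with Python 3.11.15, numpy 2.4.6 and scipy 1.17.1, and folds are ratios of mean shares. Lineage gates other than the myeloid one came first and took cells whatever their myeloid markers; they needed at least 5 endothelial, 4 pericyte, 4 astrocyte, 7 oligodendrocyte, 3 ependymal, 4 T or NK or 3 proliferating markers, or 6 myeloid markers. Myeloid cells were assigned in this order: 6 homeostatic markers (divided at 1% Apoe), 3 monocyte-like, 3 interferon, then at least 6% Apoe. Neutrophils, border macrophages, oligodendrocyte precursors, B or plasma, Schwann, fibroblast and neuron markers gave too few cells with 3 markers (3 to 64) to be gated. Pseudogene copies were aligned with Biopython 1.88 to transcripts of GENCODE M21, which names the GRCm38 build. The fold calculation was tested on simulated data.

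Named genes are the 6 members, complex I genes and rRNAs, per nuclear list the highest and lowest folds (2 each, where so many could be read) between the myeloid states with extreme shares, and the 10 genes closest to the sum over gates, with 1 tied at the last place. The members and lists were chosen with earlier results of these data known. Alternatives covered scale, cells, gates, denominator, summary, members and left-out sets.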

Additional observations from a re-analysis of the deposited data

How the results depend on the processing

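No paired analysis was possible because cells were not assigned to libraries and no result comes from a test. A value was taken as moved where it changed by more than the median SD over sets of its kind (17.7% of a share, 0.0392 for a ratio, 1.56 percentage points for the share of mt-Cytb); the cause of no change was tested. The 5 pooled folds of myeloid states kept their direction on the mean deposited value, with the stated filters (12556 cells), with 400 to 700 genes, with 1 marker more or fewer, with a cell total without mitochondrially encoded genes, Apoe, Malat1 and ribosomal protein genes and with medians. Of the alternatives chosen after the data were seen, an Apoe limit of 8% and mt-Cytb alone also kept it, and the 5 members other than mt-Cytb gave 0.61 for monocyte-like and 0.52 for very high Apoe cells. Leaving out each set in turn gave folds of 0.59 to 0.72 for homeostatic-marked cells with raised Apoe, 0.59 (without set B) to 0.78 for monocyte-like, 0.57 to 0.69 for interferon-marked, 0.64 to 0.83 (without set A) for very high Apoe and 0.88 to 1.01 (without set B, reversed) for other myeloid cells.

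Within sets, against homeostatic-marked cells with low Apoe and at least 20 cells of both, the folds were 0.91 (set B) and 1.16 (F) for homeostatic-marked cells with raised Apoe, 1.17 (B) for monocyte-like, 1.05 (B) for interferon-marked, 0.86 (B) and 1.52 (F) for very high Apoe and 1.24 (B), 1.25 (D), 1.24 (E) and 1.22 (F) for other myeloid cells. Against all homeostatic-marked cells, monocyte-like cells had 0.97 (set A) and 1.25 (B), interferon-marked cells 0.94 (A), 1.12 (B) and 1.38 (C), very high Apoe cells 1.05 (A), 0.92 (B), 1.58 (C) and 1.36 (F), and other myeloid cells 1.05 (A), 1.32 (B), 1.26 (C), 1.25 (D), 1.24 (E) and 1.09 (F). With 400 to 700 genes as well, the folds were 1.25 for monocyte-like and 1.14 for interferon-marked cells in set B, 1.44 for very high Apoe cells in set F, and 1.23 (B), 1.10 (D), 1.10 (E) and 1.00 (F) for other myeloid cells.

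With 400 to 700 genes the summed share was 1.33% in ependymal and 1.21% in T or NK cells, and mt-Cytb supplied 75.7% of the sum in astrocytes, 75.5% in ependymal and 75.5% in T or NK cells. With 1 marker fewer the summed share in astrocytes was 1.70%, no longer the highest, the share of mt-Cytb was 74.3% in ependymal and 77.7% in proliferating cells, and the ratio to complex I was 0.711 in pericyte or smooth muscle cells, 0.653 in astrocytes, 0.705 in T or NK cells and 0.643 in proliferating cells. With 1 marker more the ratio was 0.759 in homeostatic-marked cells with raised Apoe, 0.875 in T or NK cells and 0.742 in proliferating cells. In T or NK cells it was 0.707 with the stated filters and 0.712 with 400 to 700 genes, so that with these and with 1 marker fewer pericyte or smooth muscle cells had the highest ratio. Leaving out each set in turn gave a summed share of 0.993% (without set B) to 1.29% in monocyte-like and 1.06% to 1.37% (without set A) in very high Apoe cells, a share of mt-Cytb of 76.7% to 80.0% (without set A) in T or NK and 70.6% (without set B) to 76.5% in proliferating cells, and a ratio of 0.641 (without set B) to 0.702 in proliferating cells. The complex I sum without mt-Nd3, chosen after the data were seen, moved no ratio.

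The number of genes past 2-fold in either direction was 209, 510, 421, 517 and 224 for homeostatic-marked cells with raised Apoe, monocyte-like, interferon-marked, very high Apoe and other myeloid cells in that order. It became 535, 895, 809, 866 and 566 at 1.5-fold, and 7270, 8301, 7966, 8849 and 7321 with no filter on low values.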

Other observations

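mt-Nd3, the complex I gene that follows mt-Co3 on chromosome M, and Gm28438, its copy on chromosome 1, had values in different sets. The copy differs from mt-Nd3 by 1 of 345 aligned bases, T3C, counted from the first base of mt-Nd3. mt-Nd3 had mean deposited values of 0.285 in set A, 0.256 in set C and 0.815 in set E, and 0.00325, 0.0107 and 0.00494 in sets B, D and F. Gm28438 had 0.223 in set B, 0.934 in set D and 0.498 in set F, and 0, 0.000601 and 0.000831 in sets A, C and E. mt-Co1, mt-Co2, mt-Co3 and mt-Atp6 were each above their chromosome 1 copy in every set. The sets were not assigned to libraries or genotypes from these values.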
